A study of Mus musculus with 160 samples.

Results

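The striated muscle actins, the creatine kinases, myoglobin, desmin and the muscle kinase gene Mylk4 form a set of 9 genes, taken by name from a list (Acta1, Actc1, Ckm, Ckb, Ckmt1, Ckmt2, Mb, Des and Mylk4) among the 43432 mouse genes of the deposited tables. RNA had been sequenced from 32 C57BL/6J-background mice, with 1 library per mouse in each of tibialis muscle, heart, cortex, striatum and liver. The 4 arms were wild type given vehicle, and mice of genotype R6/2 given vehicle or the class IIa histone deacetylase inhibitor CHDI-00390576 at 30 or 100 mg/kg, all by mouth 2 times a day. Each arm held 8 mice per tissue, 4 males and 4 females, and no wild-type mice received the compound. The labels do not give the age of the mice. R6/2 mice carry a transgene for a fragment of human huntingtin with an expanded CAG repeat, under the human gene's own promoter, and are a model of Huntington's disease with early muscle wasting. Class IIa histone deacetylases bind MEF2 transcription factors and repress their targets in muscle.

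Actin monomers build the thin filaments on which myosin pulls. Adult skeletal muscle uses mainly the skeletal α-actin encoded by Acta1 and the heart mainly the cardiac α-actin encoded by Actc1. Creatine kinases move phosphate between ATP and creatine: the cytosolic enzymes are built from the muscle subunit (Ckm) and the brain subunit (Ckb), while Ckmt2 and Ckmt1 encode the sarcomeric and ubiquitous enzymes of mitochondria. Myoglobin, encoded by Mb, binds oxygen in heart and oxidative muscle fibres. Desmin, encoded by Des, is the muscle intermediate filament that ties Z-discs together, and Mylk4 encodes a member of the myosin light chain kinase family.

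Library totals ran from 30.1 to 39 M expected counts (an estimated number of reads per gene). Levels within a tissue are CPM, counts scaled to library size with TMM factors, and levels compared between genes or tissues are the authors' FPKM, which are scaled to transcript length. In 13 of the 160 libraries, transcripts from long genes were low against short ones by more than 0.3 on the log2 scale, and 1 wild-type female had 2 brain libraries that go against the sex label, and the results these libraries touch most are also given without them. The tissue labels were checked against marker genes. Fast-fibre markers summed to between 151443 and 172694 CPM in wild-type tibialis and to at most 56.7 CPM in wild-type heart, ventricle markers to between 37734 and 43557 CPM in wild-type heart, and neuron markers to between 5846 and 6627 CPM in wild-type cortex and between 3873 and 5426 CPM in wild-type striatum.

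By the GENCODE annotation of GRCm38 all 9 genes are protein coding, and each value is a sum over the whole gene. Acta1 (ENSMUSG00000031972) lies at chr8:123891769-123894751 on the minus strand and Actc1 (ENSMUSG00000068614) at chr2:114047282-114053548 on the minus strand. The creatine kinases are Ckm (ENSMUSG00000030399) at chr7:19404776-19422841 on the plus strand, Ckb (ENSMUSG00000001270) at chr12:111669361-111672338 on the minus strand, Ckmt1 (ENSMUSG00000000308) at chr2:121357714-121363737 on the plus strand and Ckmt2 (ENSMUSG00000021622) at chr13:91853387-91876885 on the minus strand. Mb (ENSMUSG00000018893) lies at chr15:77015487-77050670 on the minus strand, Des (ENSMUSG00000026208) at chr1:75360329-75368579 on the plus strand and Mylk4 (ENSMUSG00000044951) at chr13:32700834-32783954 on the minus strand.

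In wild-type mice each gene had its own order of tissues. Mean FPKM over 8 mice is given, and each step between neighbouring tissues was tested over mice with an exact two-sided paired permutation test whose smallest p is 0.00781, adjusted over 36 steps. Of these, 24 passed, each at an adjusted p of at most 0.0469 (exact permutation test). Without the wild-type mouse that goes against its sex label 21 of 36 passed: the steps lost were Ckm from striatum to liver, Mylk4 from striatum to cortex (exact permutation adjusted p = 0.0865 for each) and Ckmt1 from heart to tibialis (exact permutation adjusted p = 0.0511). With 7 mice the smallest p of the exact permutation test is 0.0156. The Ckmt1 difference was 2.12 log2 units with 8 mice and 2.13 with 7. Acta1 stood at 10798 in tibialis, 71.5 in heart, 4.71 in cortex, 4.09 in striatum and 0.0184 in liver, and the cortex and striatum ranges overlapped without passing the exact test (adjusted p = 0.242). Actc1 ran the other way round in muscle, at 4305 in heart and 61.3 in tibialis, with 0.836 in liver and no passing step below that. The liver mean rests on 2 libraries, at 2.65 and 3.79 FPKM, while the other 6 were at 0.141 or less and the median was 0.0401 FPKM. The same 2 livers held 5.05 and 6.89 FPKM of Mb and 0.673 and 0.89 FPKM of Ckmt2, with the other 6 at 0.215 or less.

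Among the creatine kinases, Ckm stood at 8193 FPKM in tibialis and 854 in heart, against 1.26 in striatum. Ckmt2 was nearly level between the muscles, at 1006 FPKM in heart and 857 in tibialis, with overlapping ranges but a higher heart value in 8 of 8 mice. Ckb was a brain gene here, at 801 FPKM in striatum, 496 in cortex, 17.7 in heart and 2.77 in tibialis. Ckmt1 was also highest in brain, at 86.6 FPKM in cortex and 80.9 in striatum, a step that did not pass (exact permutation adjusted p = 0.0541), against 0.634 in heart.

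Mb was highest in heart, at 7661 FPKM, and stood at 2955 in tibialis. Des stood at 476 FPKM in tibialis, 315 in heart and 1.24 in liver. Mylk4 was a skeletal muscle gene, at 351 FPKM in tibialis and 29.8 in heart, with 0.123 or less in the other tissues.

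**Figure D1:**
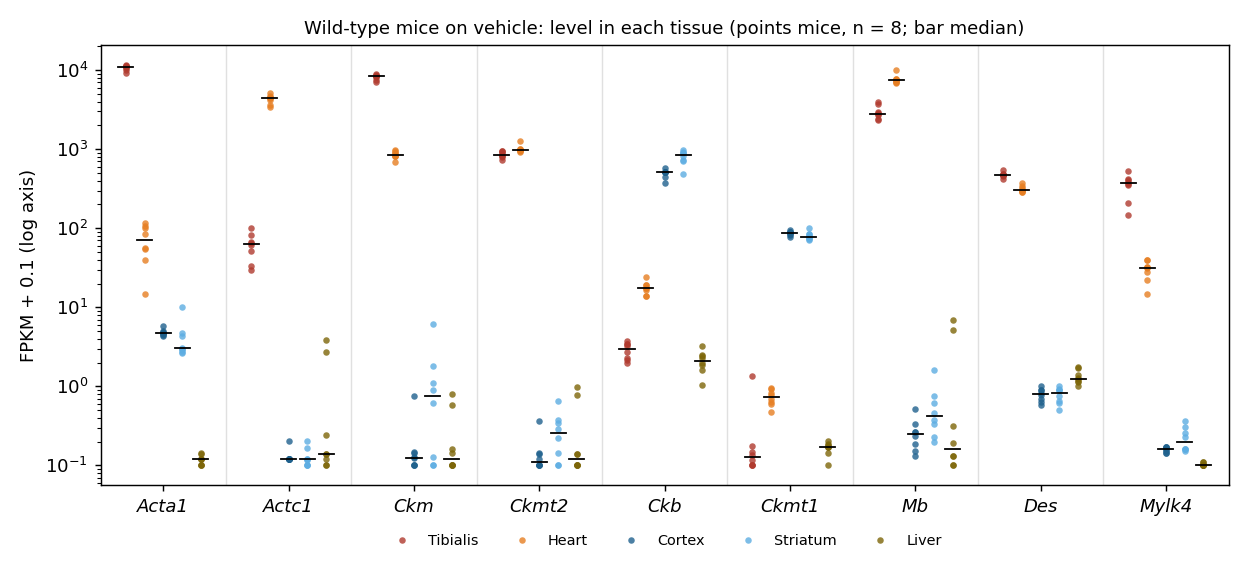
Level of each gene in the 8 wild-type libraries of each tissue, as FPKM + 0.1 on a log axis. Points are libraries and bars medians. Acta1, Ckm and Mylk4 were highest in tibialis, Actc1 and Mb in heart, and Ckb and Ckmt1 in the brain tissues.

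In tibialis, 8 of the 9 genes had enough counts to test. Of these, 6 fell in R6/2 mice on vehicle against wild type and 0 rose, with edgeR's quasi-likelihood test at a Benjamini-Hochberg adjusted p under 0.05 over all genes. Over the whole tissue, 45.9% of 15760 genes were called, 22.2% fell and 23.6% rose. The median log2 fold change was -1.27 over the 8 genes and 0.03 over all genes. In 5 of the 8, every R6/2 library lay below every wild-type library on the TMM scale, which held for 10.5% of all genes tested. Bulk RNA cannot tell fewer fibres of a kind from less RNA per fibre.

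Skeletal α-actin RNA fell several-fold. Acta1 measured 16808, 21971 and 24094 CPM (lowest, median and highest) in wild type and 3023, 4164 and 5434 CPM in R6/2, so that the groups were far apart. Its log2 fold change was -2.34 ± 0.12 (SE; edgeR adjusted p = 2.97e-16), or 19.7% of the wild-type level in the fit. Cardiac α-actin did not follow it. Actc1 measured 62.8, 126 and 193 CPM in wild type and 93.7, 154 and 185 CPM in R6/2, with the R6/2 libraries inside the wild-type range and a log2 difference of 0.24 ± 0.22 (edgeR adjusted p = 0.386). The 2 actins are nearly identical in coding sequence, and how reads that match both were divided is not given in the sources used here.

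Both muscle creatine kinases fell. Ckm measured 12928, 16673 and 17988 CPM in wild type and 3958, 5269 and 6781 CPM in R6/2, without overlap. Its log2 fold change was -1.66 ± 0.10 (edgeR adjusted p = 1.33e-14). The mitochondrial partner moved less: Ckmt2 measured 1393, 1829 and 2095 CPM against 803, 947 and 1121 CPM, without overlap in CPM, a log2 fold change of -0.89 ± 0.08 (edgeR adjusted p = 3.18e-10). As a share of all counts Ckmt2 ran from 0.109% to 0.142% in wild type and from 0.0933% to 0.119% in R6/2, with overlap. The brain-type subunit was a trace in tibialis, with Ckb at 3.97, 5.84 and 6.94 CPM in wild type and 4.3, 5.01 and 7.25 CPM in R6/2, and its log2 difference of -0.06 ± 0.16 did not pass (edgeR adjusted p = 0.788). Ckmt1 was too low to test, reaching 2.5 CPM in 1 wild-type library and at most 0.161 CPM in any R6/2 vehicle library.

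Myoglobin RNA fell as well. Mb measured 3513, 4162 and 5920 CPM in wild type and 913, 1152 and 1523 CPM in R6/2, without overlap, a log2 fold change of -1.89 ± 0.12 (edgeR adjusted p = 2.25e-14). Mylk4 had the largest change of the set in this comparison. It measured 1057, 2368 and 3334 CPM in wild type and 153, 214 and 227 CPM in R6/2, so that even the lowest wild-type mouse was above every R6/2 mouse. The log2 fold change was -3.47 ± 0.20 (edgeR adjusted p = 4.22e-15), an 11.1-fold difference in the fit.

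Desmin changed little. Des measured 1606, 2031 and 2318 CPM in wild type and 1435, 1661 and 1870 CPM in R6/2, with 3 R6/2 libraries below the wild-type range. On the TMM scale it fell by 0.27 ± 0.06 in log2 (edgeR adjusted p = 8.33e-04), but against total counts it rose by 0.38 ± 0.06 (adjusted p = 6.93e-07). Fast-fibre markers fell alongside in 9 of 10 genes, from a summed 151443, 161075 and 172694 CPM to 37894, 46340 and 54343 CPM, and no marker of that list was at 0. With total counts, their median log2 fold change was -1.11, against 0.68 for all genes. On that scale most genes rose: of all 15760 tested, 12628 rose and 523 fell. Slow-fibre markers had 1.59 there (4 of 5 rose, 1 fell) and satellite cell markers 1.39 (5 of 5 rose). Leukocyte markers had 0.85 (7 of 7 rose), fibroblast markers 0.78 and endothelium markers 0.66. The mitochondrial share of counts ran from 22% to 24.6% in wild type and from 18% to 21.4% in R6/2. The level of long against short transcripts was -0.498, -0.04 and 0.099 (log2; lowest, median and highest) in wild type. In R6/2 it was -0.047, 0.142 and 0.369. The part of these cell types, of the mitochondrial share or of transcript length in the change of the 9 genes was not tested.

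**Figure D2:**
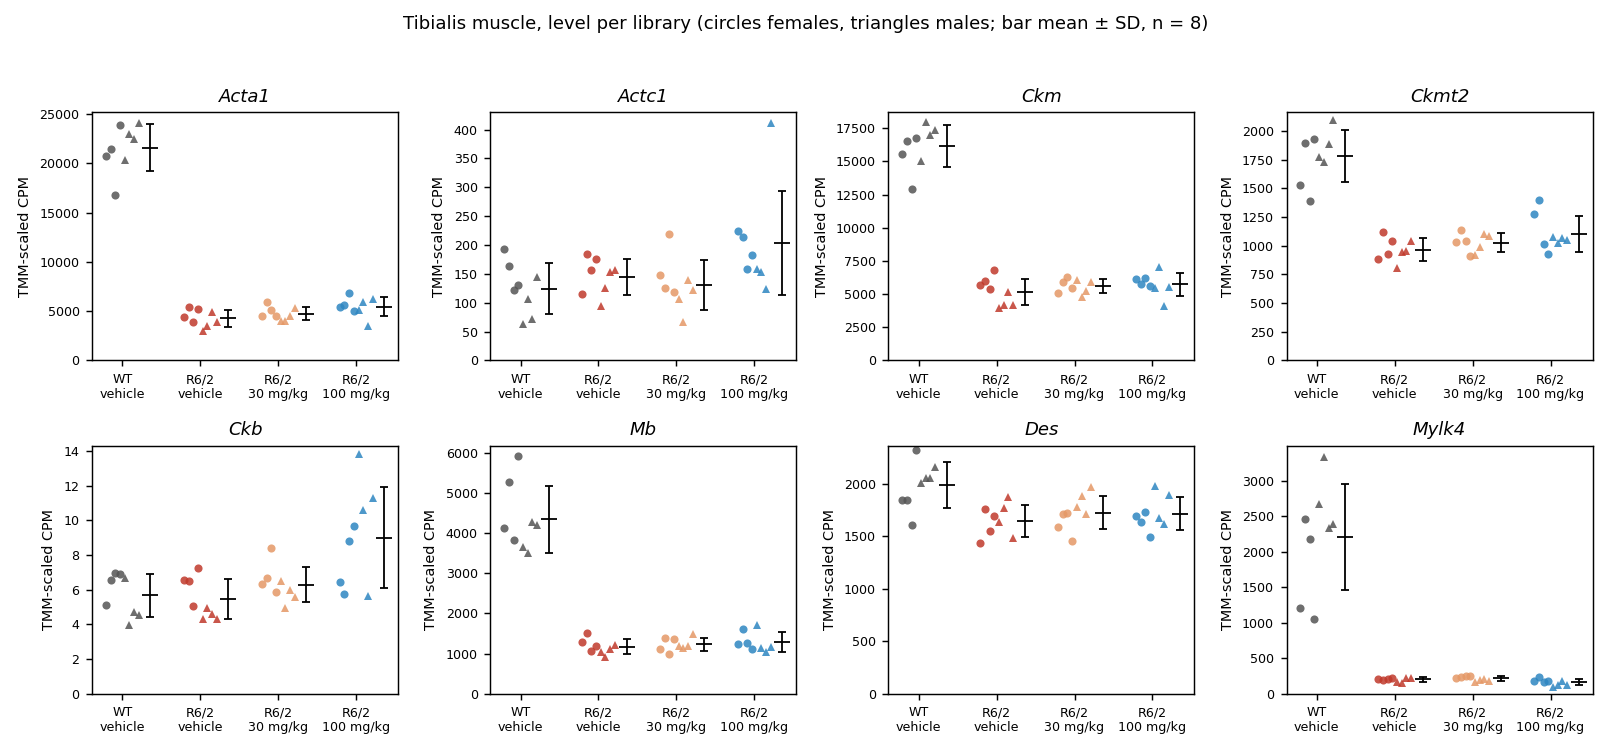
TMM-scaled CPM of the genes in tibialis, 1 point per library, 8 libraries in each of the 4 arms, with the mean and SD. Acta1, Ckm, Ckmt2, Mb and Mylk4 in R6/2 mice on vehicle lie below the wild-type libraries without overlap.

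How libraries are scaled decides the reading of the smaller changes in tibialis. The TMM factors ran from 0.679 to 0.78 in wild type and from 1.06 to 1.17 in R6/2 on vehicle. The 10 most abundant genes took between 26.2% and 29.5% of counts in wild type and between 18.4% and 22.1% in R6/2. With total counts in place of TMM, the median log2 fold change of all genes shifted to 0.68, and the numbers of genes called turned from 3723 higher and 3505 lower to 12628 higher and 523 lower. On that scale the same comparison had 3 of the 8 genes higher: Ckb by 0.58 ± 0.17 (edgeR adjusted p = 0.00324), Des by 0.38 and Actc1 by 0.88. Acta1 (-1.69), Ckm (-1.01), Mb (-1.24) and Mylk4 (-2.81) stayed lower and past the test on that scale, and Ckmt2 did so at -0.24 (edgeR adjusted p = 0.00136), a much smaller change than with TMM.

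**Figure D3:**
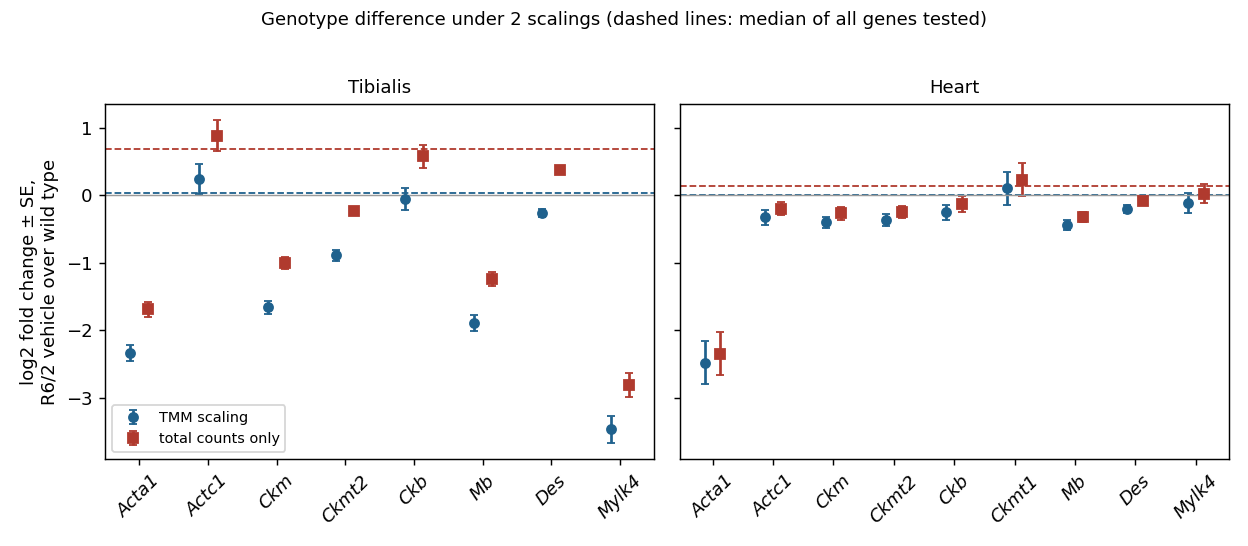
Log2 fold change of each gene, R6/2 vehicle against wild type, in tibialis and heart with TMM scaling and with total counts only, with error bars of 1 SE and dashed lines at the median of all genes tested. In tibialis, Des and Ckb are below 0 with TMM and above 0 with total counts, while Acta1, Ckm, Mb and Mylk4 stay well below 0.

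Ratios within a library do not depend on that scaling. Each was compared between 8 wild-type and 8 R6/2 vehicle libraries by an exact two-sided permutation test, whose smallest p is 1.55e-04, adjusted over 12 ratios. In tibialis the FPKM ratio of Acta1 to Ckm had a median of 1.31 in wild type and 0.797 in R6/2, without overlap (exact permutation adjusted p = 3.73e-04). Actc1 to Acta1 went from a median of 0.00557 to 0.0329, a log2 difference of 2.63, again with separate groups and the same p. Ckmt2 to Ckm went from 0.107 to 0.177 and Des to Ckm from 0.058 to 0.155, both with the same p and no overlap. Mylk4 to Ckm dropped from 0.0453 to 0.0118. Mb to Ckm was 0.344 and 0.302, which did not pass (exact permutation adjusted p = 0.153).

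Genes that work with these proteins were taken from 7 lists. Among all 15760 genes tested in tibialis, 22.2% fell and 23.6% rose, and with total counts 523 genes fell and 12628 rose. Of 18 tested partners of the thin filament, 11 fell and 1 rose in R6/2 tibialis (median -0.33, against 0.03 for all genes), while with total counts 4 fell and 11 rose. Tpm1, a tropomyosin, went from 17220 ± 1553 to 4103 ± 431 CPM (SD, n = 8 each), a log2 fold change of -2.07. Tmod4, which caps thin filaments, had -1.03 and Tpm2 had -1.56. Capzb, a capping protein subunit, had -0.49, and +0.15 with total counts.

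Of 24 genes of intermediate filaments and the Z-disc, 13 fell and 3 rose, or 8 and 11 with total counts. Those with the smallest p were Myoz1 (-1.72), Actn3 (-2.14), Myot (-1.26) and Tcap (-1.73), all Z-disc proteins. Of 16 genes of creatine supply and adenylate buffering, 8 fell and 2 rose, or 4 and 11 with total counts. The AMP deaminases moved in opposite directions: Ampd1, the muscle enzyme, went from 1483 ± 140 to 309 ± 41.8 CPM, and Ampd3 from 12 ± 1.66 to 50.5 ± 6.23 CPM, with log2 fold changes of -2.27 and 2.08. Ak1, the cytosolic adenylate kinase, had -0.93, and Vdac3, a mitochondrial outer membrane channel, had -0.84.

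Of 15 genes of myosin light chain phosphorylation, 10 fell and 1 rose, or 6 and 8 with total counts. Mylk2, the skeletal light chain kinase, went from 1244 ± 150 to 252 ± 31 CPM (-2.32 ± 0.10), Mylpf had -1.69 and Myl1 had -1.80. The non-muscle actins Actb (-0.35) and Actg1 (-0.42) fell with TMM, while with total counts Actb rose (0.30) and Actg1 was at 0.23 without passing (edgeR adjusted p = 0.0693). Of 12 genes of oxygen handling, 4 fell and 2 rose (0 and 8 with total counts); Hif1a had 0.67 and Egln3 0.93, while Egln1 (-0.42) and Vegfa (-0.38) were above 0 with total counts, at 0.22 and 0.27. Of 16 transcription factors of muscle actin genes, 5 fell and 4 rose (1 and 11 with total counts). For this list and the oxygen list, the share called with TMM was not far from the 45.9% of all genes. Mrtfa, a coactivator of SRF, had -0.94, and Srf (-0.55) and Mef2d (-0.47) changed sign with total counts.

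Upstream sequence is shown for 4 genes because Acta1, Ckm and Mylk4 fell together in tibialis while Actc1 did not. RefSeq matched all 9 genes; the 250 bases before the listed start are given 5′ to 3′ on the gene's strand, from GRCm38.p6. Capitals mark letters that match a CArG box (the SRF site), a MEF2 site, CATTCC (the TEAD site, M-CAT) or TATAAA, searched on both strands. Acta1 lies at chr8:123894776-123895025 on the minus strand, Actc1 at chr2:114052876-114053125 on the minus strand, Ckm at chr7:19410844-19411093 on the plus strand and Mylk4 at chr13:32783965-32784214 on the minus strand.
Acta1: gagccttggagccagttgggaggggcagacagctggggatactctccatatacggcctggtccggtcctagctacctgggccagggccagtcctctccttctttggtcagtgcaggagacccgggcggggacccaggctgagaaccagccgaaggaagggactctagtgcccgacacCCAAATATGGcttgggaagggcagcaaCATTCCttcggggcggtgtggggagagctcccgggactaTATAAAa
Actc1: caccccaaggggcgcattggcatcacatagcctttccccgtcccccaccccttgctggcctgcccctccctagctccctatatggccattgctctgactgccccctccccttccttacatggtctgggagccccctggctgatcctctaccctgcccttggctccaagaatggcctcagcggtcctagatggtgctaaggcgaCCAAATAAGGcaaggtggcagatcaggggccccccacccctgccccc
Ckm: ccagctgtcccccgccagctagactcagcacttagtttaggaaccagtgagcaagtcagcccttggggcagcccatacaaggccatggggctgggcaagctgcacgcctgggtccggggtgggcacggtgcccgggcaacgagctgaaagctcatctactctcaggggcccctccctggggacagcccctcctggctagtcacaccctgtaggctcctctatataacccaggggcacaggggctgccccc
Mylk4: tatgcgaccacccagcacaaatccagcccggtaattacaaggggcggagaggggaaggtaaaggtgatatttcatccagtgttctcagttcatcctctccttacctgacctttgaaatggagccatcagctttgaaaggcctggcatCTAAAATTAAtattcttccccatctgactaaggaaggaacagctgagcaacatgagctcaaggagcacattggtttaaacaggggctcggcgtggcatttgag
The stretches before Acta1 and Actc1 each held 1 CArG match, and Acta1 also held 1 CATTCC and 1 TATAAA. Mylk4 held 1 MEF2 match. Ckm held none of the 4. Of the genes whose sequence is not shown, Ckb held 1 MEF2 match, 1 CATTCC and 1 TATAAA. Ckmt1 held 1 CATTCC and 1 TATAAA before 1 of its listed starts. Ckmt2, Mb and Des held none of the 4. Among 32841 promoters of the same length, 1.47% held a CArG match, 2.92% a MEF2 match, 12.6% CATTCC and 12.4% TATAAA. The E-box CANNTG, present in 66.2% of promoters, was found 2 times before Acta1, 0 times before Actc1, 1 time before Ckm and 3 times before Mylk4. These are letter matches in a short window, and no binding was measured.

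In the heart all 9 genes could be tested. With edgeR, 6 fell in R6/2 on vehicle and 0 rose, where 14.4% of 15812 genes were called, 7.46% fell and 6.96% rose. The median log2 fold change was -0.33 over the 9 genes and 0.01 over all genes. Apart from Acta1 the changes were small, and only Mb had separate groups, a pattern held by 1.01% of genes. The level of long against short transcripts moved with genotype too, at -0.592, -0.121 and 0.075 (log2; lowest, median and highest) in wild-type hearts and -0.089, 0.127 and 0.163 in R6/2 hearts, and its part in these values was not tested. Without the libraries of few long transcripts the same number of genes, 6, fell in heart.

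Acta1, a minor actin of the adult heart, measured 22.5, 108 and 183 CPM in wild type and 10.2, 16.4 and 43.3 CPM in R6/2. The groups touched through 1 low wild-type female and 1 high R6/2 male, and 7 of 8 R6/2 hearts lay below the wild-type range. By the labels that female is the mouse whose 2 brain libraries go against the sex label. The next wild-type heart stood at 60.4 CPM, above every R6/2 vehicle heart. The log2 fold change was -2.48 ± 0.32 (edgeR adjusted p = 1.61e-05). Fast-fibre markers in the heart summed to 3.32, 4.76 and 56.7 CPM in wild type and 2.11, 3.4 and 31.7 CPM in R6/2, with none of the list at 0 in all libraries. Myh4, the defining fast myosin, was at 0 in 5 of 8 wild-type hearts, where Acta1 stood at 84, 60.4, 22.5, 152 and 154 CPM, and reached 15.5 and 6.66 CPM in 2 wild-type males. Actc1, the main heart actin, measured 5275, 6733 and 8336 CPM in wild type and 4545, 5178 and 6397 CPM in R6/2, with overlap. It fell by 0.33 ± 0.11 on the log2 scale (edgeR adjusted p = 0.0339), a call that did not hold with total counts (-0.20, adjusted p = 0.132) or in 8 of 16 fits that left out 1 library each (adjusted p from 0.0208 to 0.0808).

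The creatine kinases of heart muscle fell together. Ckm measured 1042, 1299 and 1442 CPM in wild type and 770, 973 and 1104 CPM in R6/2, a log2 fold change of -0.40 ± 0.08 (edgeR adjusted p = 0.00175). Ckmt2 measured 1449, 1559 and 1885 CPM against 1006, 1191 and 1506 CPM, a log2 fold change of -0.37 ± 0.09 (edgeR adjusted p = 0.0068). Both pairs of groups overlapped slightly. Ckb measured 21.2, 28.1 and 35.9 CPM against 19.5, 23.1 and 27.8 CPM, a difference of -0.25 ± 0.11 that did not pass (edgeR adjusted p = 0.128), and Ckmt1 stood at a median of 1.01 CPM in wild type and 1.19 CPM in R6/2 (0.10, edgeR adjusted p = 0.817).

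Myoglobin had the clearest separation in the heart. Mb measured 7783, 8553 and 10468 CPM in wild type and 5920, 6133 and 7013 CPM in R6/2, with every R6/2 heart below every wild-type heart and a log2 fold change of -0.44 ± 0.07 (edgeR adjusted p = 1.97e-04). Des measured 907, 938 and 1131 CPM against 771, 841 and 974 CPM, a log2 fold change of -0.21 ± 0.06 (edgeR adjusted p = 0.0234). With total counts it was -0.08 (adjusted p = 0.389), and the call was lost when either of 2 libraries, R6/2 male 2 or wild-type female 2, was left out (highest adjusted p = 0.0715). Mylk4, the gene with the largest fall in tibialis, measured 81.6, 187 and 242 CPM in wild-type heart and 121, 165 and 209 CPM in R6/2 heart, so the R6/2 hearts lay within the wild-type range (-0.11 ± 0.15, edgeR adjusted p = 0.684). The lowest wild-type value is male 4, a library of few long transcripts. The next wild-type heart stood at 133 CPM, above the lowest R6/2 heart.

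**Figure D4:**
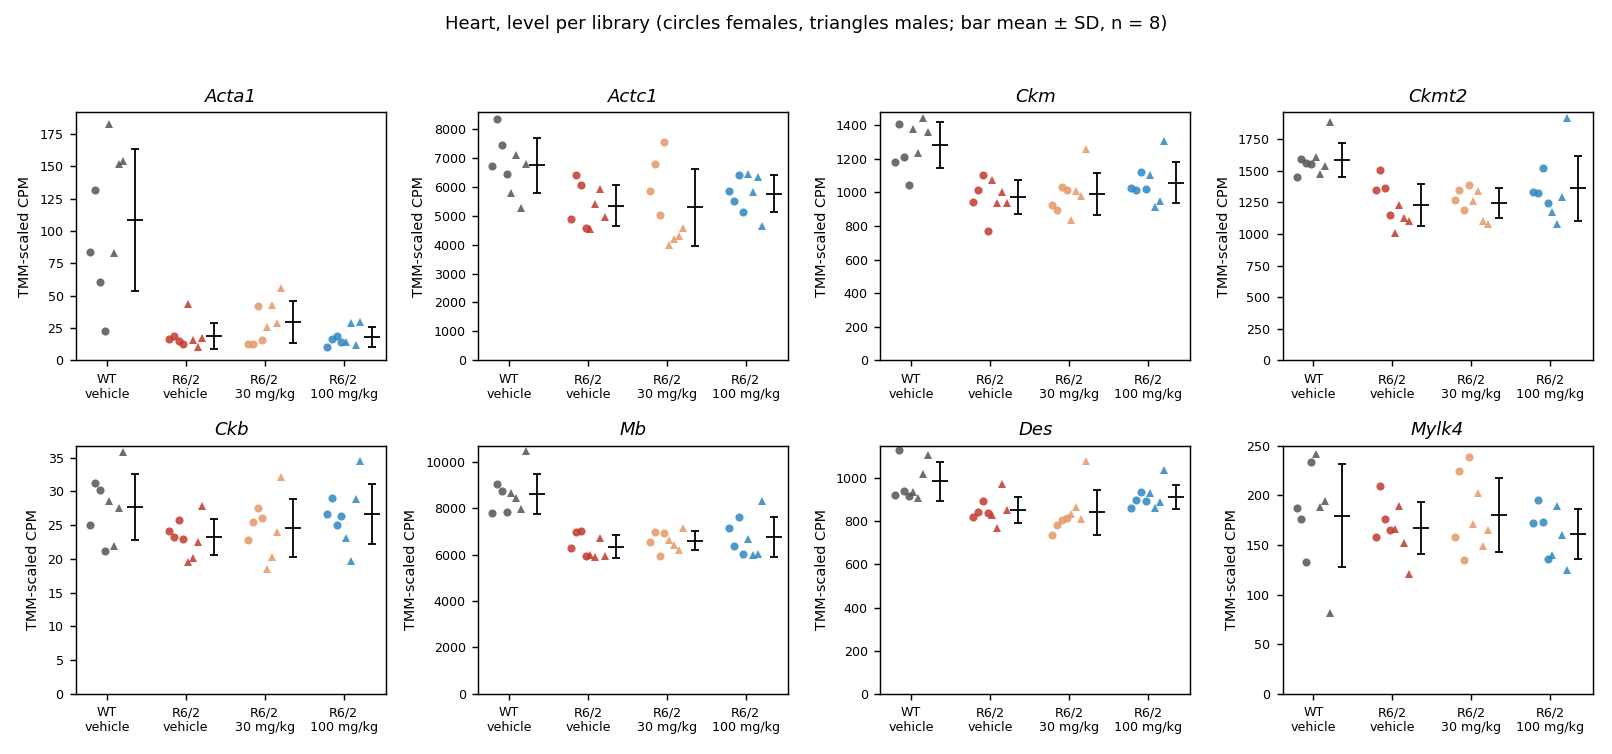
TMM-scaled CPM in heart of the genes other than Ckmt1, 1 point per library, 8 libraries in each of the 4 arms, with the mean and SD. Mb in R6/2 on vehicle lies below wild type without overlap, Acta1 is lower in 7 of 8 hearts, and Mylk4 overlaps throughout.

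In the heart, 3 of the 6 ratios passed. Actc1 to Acta1 FPKM went from a median of 69.4 to 329 (log2 difference 2.10, exact permutation adjusted p = 0.00186) and Acta1 to Ckm from 0.0815 to 0.0172 (exact permutation adjusted p = 6.22e-04). Des to Ckm went from 0.374 to 0.411 (exact permutation adjusted p = 0.0168). Ckmt2, Mb and Mylk4 to Ckm did not pass, at exact permutation adjusted p values of 0.782, 0.568 and 0.153. Ventricle markers fell in 4 of 5 genes, with sums of 37734, 39996 and 43557 CPM in wild type and 29249, 31921 and 36101 CPM in R6/2. Fibroblast markers rose in 4 of 6 genes, with sums of 901, 1085 and 1130 CPM against 993, 1371 and 1689 CPM, and leukocyte markers rose in 3 of 8, with sums of 96.5, 115 and 157 CPM against 136, 228 and 344 CPM. Atrium markers fell in 4 of 6 genes, with sums of 1481, 2249 and 3423 CPM against 998, 1441 and 1947 CPM, and endothelium markers rose in 2 of 5, with sums of 559, 579 and 644 CPM against 633, 653 and 737 CPM. With total counts, 2 of the 5 ventricle and 3 of the 6 atrium markers fell, 1 atrium and 4 endothelium markers rose, and 6 of 6 fibroblast and 8 of 8 leukocyte markers rose. The part of these cell types in the heart values was not tested.

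In the heart, the same 7 lists are set beside all 15812 genes tested, of which 7.46% fell and 6.96% rose. With total counts, 274 of all genes fell and 3972 rose. Of 15 genes of creatine supply and adenylate buffering, 6 fell and 0 rose (1 and 2 with total counts): Slc25a4, the mitochondrial ADP/ATP carrier, went from 3612 ± 478 to 2603 ± 281 CPM (-0.47 ± 0.09). Of 23 intermediate filament and Z-disc genes, 8 fell and 0 rose (3 and 1 with total counts), with Pdlim5 at -0.39, Csrp3 at -0.35 and Myoz2 at -0.39. Of 18 thin filament partners, 5 fell and 0 rose (1 and 1 with total counts), with Tpm1 from 5766 ± 636 to 4209 ± 581 CPM (-0.45). Of 15 light chain genes, 4 fell and 1 rose (2 and 1 with total counts), with Myl2 at -0.44, Myl3 at -0.47 and Myl6b at 0.61. Of 12 oxygen genes 3 fell (2, and 2 rose, with total counts), with the β-globins Hbb-bs at -0.77 and Hbb-bt at -0.85, while red blood cell markers fell in 3 of 5 genes. None of the 4 other actins and 1 of 15 transcription factors (Mrtfb, 0.20 ± 0.06) passed.

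The difference between tibialis and heart was tested directly, in 1 model over both tissues with the mouse as a block. Here 26.2% of 16869 genes passed, 13.9% with a more negative effect in tibialis, and 5 of the 9 genes passed. Mylk4 had the greatest difference of the 9, 3.34 ± 0.24 log2 units lower in tibialis (-3.34, edgeR adjusted p = 1.76e-12). Mb differed by -1.46 ± 0.15 (edgeR adjusted p = 4.74e-09) and Ckm by -1.28 ± 0.15 (edgeR adjusted p = 3.21e-08). Ckmt2 differed by -0.53 ± 0.13 (edgeR adjusted p = 0.00244), which was 0.01 with total counts. Actc1 differed the other way, by 0.59 ± 0.22 (edgeR adjusted p = 0.0438), and did not pass without the mouse block (adjusted p = 0.0986) or without mice that had a library of few long transcripts (adjusted p = 0.0998). Ckmt1, too low to test in tibialis alone, had -0.97 (edgeR adjusted p = 0.52), and -2.51 without the mouse block (adjusted p = 0.0208), with 1 wild-type tibialis library above the rest. Acta1 fell in both tissues, and the difference of 0.11 ± 0.40 was not past the test (edgeR adjusted p = 0.881), an estimate whose SE leaves a wide range. Des (-0.08 ± 0.09, edgeR adjusted p = 0.597) and Ckb (0.16 ± 0.22, edgeR adjusted p = 0.653) did not pass, but with total counts both did, at 0.46 (adjusted p = 3.32e-05) and 0.70 (adjusted p = 0.0109).

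In the brain, both abundant creatine kinases fell. In cortex 5 of the 9 genes were tested and 4 fell, where 53.9% of genes were called, 25.8% fell and 28.1% rose. Ckb measured 593, 791 and 888 CPM in wild type and 496, 538 and 585 CPM in R6/2 on vehicle, with groups separate in CPM and a log2 fold change of -0.50 ± 0.06 (edgeR adjusted p = 9.21e-08). As a share of all counts Ckb ran from 0.0554% to 0.086% in wild type and from 0.0498% to 0.0592% in R6/2, with overlap. Ckmt1 measured 132, 146 and 155 CPM against 95.4, 99.2 and 106 CPM, separate in CPM and as a share of counts, at -0.51 ± 0.04 (edgeR adjusted p = 8.82e-12). Acta1, at low level, measured 6.45, 6.88 and 8.63 CPM against 3.21, 3.74 and 4.71 CPM, with -0.88 ± 0.10 (edgeR adjusted p = 8.43e-09). In CPM the 3 genes had all 8 R6/2 libraries below the wild-type range, as 11.2% of cortical genes did. Des measured 1.38, 1.78 and 2.32 CPM against 0.912, 1.34 and 1.76 CPM (-0.46 ± 0.14, edgeR adjusted p = 0.00637), and Mylk4 was 0.36 (adjusted p = 0.187). Neuron markers fell in 7 of 7 genes, from sums of 5846, 6337 and 6627 CPM to 4049, 4408 and 4697 CPM, and astrocyte markers in 5 of 5, from 4277, 4451 and 6128 CPM to 2295, 2555 and 2777 CPM, and their part was not tested.

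In striatum 7 genes were tested and 3 fell, where 42.4% of genes were called, 19.8% fell and 22.6% rose. In 0 of the 7 did all R6/2 libraries lie below wild type, as 8.45% of genes did. Ckb measured 788, 1330 and 1521 CPM in wild type and 611, 734 and 1250 CPM in R6/2. The high R6/2 value is male 2, a library of few long transcripts. The log2 fold change was -0.73 ± 0.14 (edgeR adjusted p = 1.24e-04), or -0.87 ± 0.12 without such libraries. Ckmt1 measured 124, 131 and 170 CPM against 84.2, 88.4 and 155 CPM, the same library being highest, at -0.49 ± 0.11 (edgeR adjusted p = 5.81e-04). It was -0.61 without libraries of few long transcripts, and on FPKM -0.24 (limma adjusted p = 0.27). Male 2 stood at 206 FPKM, the other R6/2 vehicle libraries from 55.3 to 65.1 FPKM and wild type from 71.9 to 101 FPKM. Acta1 measured 3.85, 4.46 and 15.7 CPM against 2.19, 3.06 and 7.25 CPM (-0.73 ± 0.29, edgeR adjusted p = 0.0399), and without the mouse that goes against its sex label the difference was -0.35 ± 0.24 (edgeR adjusted p = 0.249). That mouse's striatal library held 9.29 CPM of Ckm and 32.2 CPM of Myh4. Neuron markers fell in 5 of 7 genes (sums 3873, 4345 and 5426 against 2893, 3196 and 4038 CPM) and astrocyte markers in 5 of 5 (3374, 3806 and 5308 against 1521, 2092 and 2301 CPM). In liver, where 12.8% of genes were called, 3 of the genes were tested and 0 passed with edgeR (1 had an unadjusted p under 0.05, Ckb at 0.47, adjusted p = 0.0918).

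**Figure D5:**
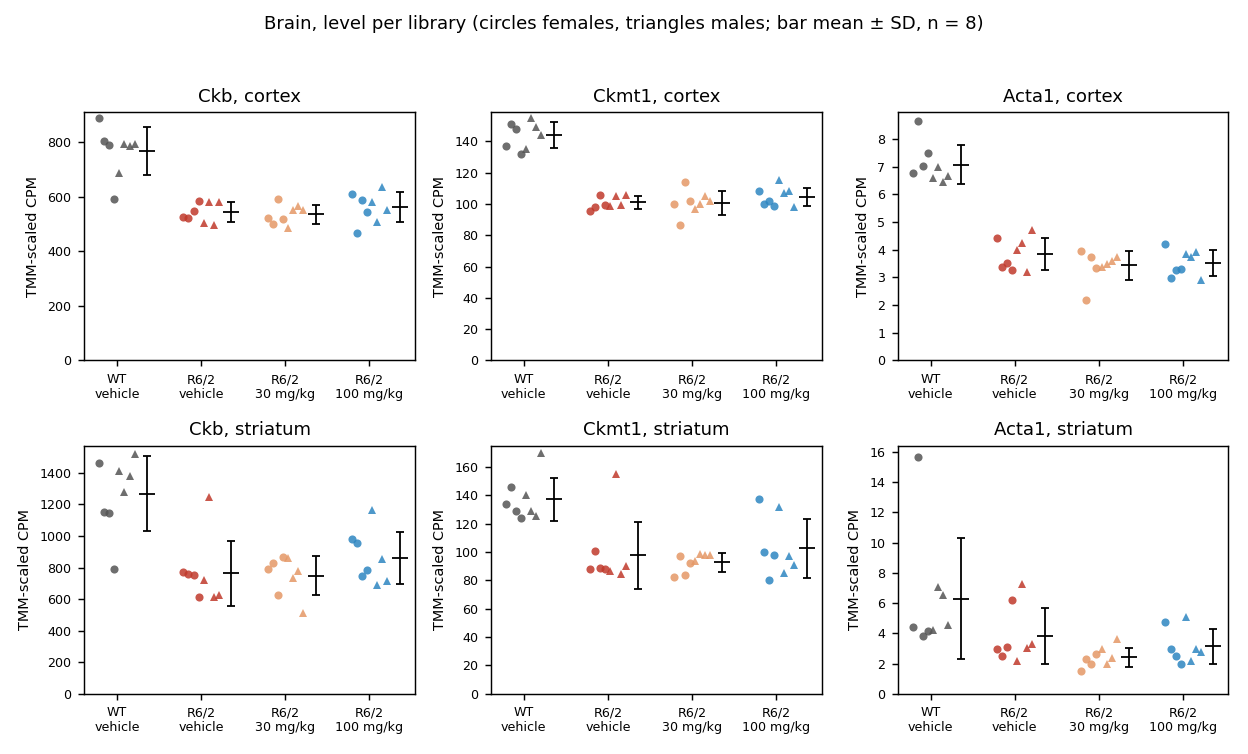
TMM-scaled CPM of Ckb, Ckmt1 and Acta1 in cortex and striatum, 1 point per library, 8 libraries in each of the 4 arms, with the mean and SD. Ckb and Ckmt1 in cortex are lower in R6/2 on vehicle than in wild type, and the high striatal R6/2 vehicle point of Ckb and Ckmt1 is male 2.

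CHDI-00390576 did not move any of the genes past the test at either dose in any tissue with edgeR. On FPKM, limma made no call for them in tibialis, heart, cortex or striatum. Liver was also fitted with limma, but its values for these genes are not reported here. The share of all genes called at 100 mg/kg was 0% in tibialis and striatum, 0.0126% in heart and 0.00571% in cortex and 2.06% in liver, and it was 0% at 30 mg/kg in all 5 tissues. At 100 mg/kg, 4 of the 8 genes tested in tibialis, 0 of 9 in heart, 1 of 5 in cortex and 1 of 7 in striatum had an unadjusted p under 0.05, and at 30 mg/kg the numbers were 0, 0, 0 and 2. The share of all genes at that unadjusted threshold is not reported here, so these counts cannot be set against it. In striatum Mylk4 is counted at each dose, with R6/2 vehicle male 2 at 3.16 CPM and the next at 0.712 CPM. Male 2 is a library of few long transcripts. In tibialis, Ckb measured 4.95, 6.14 and 8.42 CPM at 30 mg/kg and 5.62, 9.25 and 13.8 CPM at 100 mg/kg, and 5 of the 8 mice at 100 mg/kg were above the R6/2 vehicle range. The highest is male 1, a library of few long transcripts. The log2 difference of Ckb at 100 mg/kg was 0.75 ± 0.16 (edgeR adjusted p = 0.23), and DESeq2 called it (adjusted p = 0.0192). Without libraries of few long transcripts it was 0.64 (edgeR adjusted p = 0.29).

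Acta1 in tibialis measured 4017, 4505 and 5953 CPM at 30 mg/kg and 3515, 5546 and 6852 CPM at 100 mg/kg, with 5 of 8 mice above the R6/2 vehicle range at the higher dose (0.35 ± 0.11, edgeR adjusted p = 0.299). All of these stayed below the lowest wild-type value of 16808 CPM. At 100 mg/kg Actc1 had 0.51 ± 0.22 (edgeR adjusted p = 0.344), and 0.21 ± 0.17 (edgeR adjusted p = 0.614) without male 4, which stood at 412 CPM with the next mouse at 225 CPM. Ckmt2 had 0.20 ± 0.08 (edgeR adjusted p = 0.342). Mylk4 measured 170, 222 and 257 CPM at 30 mg/kg and 95.3, 172 and 234 CPM at 100 mg/kg, with 3 mice at the higher dose below the R6/2 vehicle range (-0.33 ± 0.18, edgeR adjusted p = 0.398). The lowest of these 3 is male 1, a library of few long transcripts. Ckm measured 4777, 5692 and 6294 CPM at 30 mg/kg and 4093, 5702 and 7049 CPM at 100 mg/kg (0.16 ± 0.10, edgeR adjusted p = 0.446). In heart, Acta1 measured 12.8, 27.4 and 55.8 CPM at 30 mg/kg and 10.3, 15.5 and 29.7 CPM at 100 mg/kg, without a passing difference. Between 100 and 30 mg/kg no gene of the set passed either, where 0.0067% of genes were called in liver and 0% in the other tissues. Of the set, 3 of 8 in tibialis and 1 of 9 in heart had an unadjusted p under 0.05. The share of all genes at that threshold is again not reported. The largest of these differences in tibialis were Actc1 at 0.67 ± 0.22 (edgeR adjusted p = 0.521), or 0.38 ± 0.17 without male 4, and Ckb at 0.54 ± 0.16 (edgeR adjusted p = 0.498).

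Sex made no difference past the test in the genotype effect or in the effect of 100 mg/kg for any gene of the set that could be tested, with 4 mice per sex and arm. In tibialis the genotype effect was more negative in males for Ckm (-0.58 ± 0.17, edgeR adjusted p = 0.289) and Mylk4 (-0.81 ± 0.29, edgeR adjusted p = 0.444), neither past the test, where 0.0508% of genes were called. That share was 0.00632% in heart, 0% in cortex and striatum and 1.79% in liver, and for the 100 mg/kg effect it was 0.00635% in tibialis and 0% elsewhere. At an unadjusted p under 0.05 edgeR gave 2 of 8 genes in tibialis in each of these sex contrasts and 0 in the other tissues. The share of all genes at that unadjusted threshold is not reported here.

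The genes whose level varied most like each of these over the 32 libraries of a tissue, after subtracting the mean of each arm and sex, are given as a description, since the libraries share depth and preparation. In tibialis, out of 11027 candidate genes, Acta1 was most like Tpm2 (r = 0.80), Tmem132a (0.79) and Ckm (0.78). Ckmt2 was most like Got2 (0.89), Mdh1 (0.88) and Atp5b (0.85), which encode mitochondrial or cytosolic enzymes of energy metabolism. Ckb was most like Rcn3 (0.90) and the extracellular matrix genes Bgn and Lox (0.86 each), and Mylk4 was most like Jak2 (0.81), Sepsecs and Tef (0.80 each). Ckm was nearest to Sppl2b (0.87), Mb to Mapk12 (0.82), Des to Hspb6, Ctsa and Bag3 (0.83 each) and Actc1 to Eml2 (0.69). In heart, out of 11333, Mb was nearest to Cisd1 (0.93), Ckmt2 to Suclg1 (0.93), Ckm to Myl3 (0.92) and Actc1 to Eif3j1 (0.80). Acta1 had a weaker best match there, Adam11 at 0.68.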

How the data were processed

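The authors deposited 2 values per gene for each of 160 libraries: expected counts, per the file headers, of which 67.7% of those above 0 were whole, and FPKM, already divided by transcript length and library size. CASAVA 1.8.2 is named per the submitters' processing notes; aligner, quantifier and build are not given in the sources used. GENCODE M21 (GRCm38) gave symbols and positions. Expected counts were rounded, filtered by arm (filterByExpr), scaled by TMM and tested in R 4.3.3 with edgeR 4.0.16 (quasi-likelihood; arm and sex), 32 libraries per tissue. The SE divides the absolute log2 fold change by the root of F. Genes passed at an adjusted p (Benjamini-Hochberg) below 0.05. Tibialis and heart were also fitted together with a mouse block. Alternatives used DESeq2 1.42.0 and limma 3.58.1 on log2(FPKM + 0.1) and log2(FPKM + 1). The fits were tested on simulated data. From each list, up to 4 genes with the smallest p among those that passed in a tissue are named (some are not reported here), and likeness is Pearson's r (top 3 genes per member, of which some are printed). The members and lists were chosen with earlier results of these data known. That libraries come from separate mice is read from the labels.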

Additional observations from a re-analysis of the deposited data

Results flagged for a closer look

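With 8 libraries in each arm, 116 groups of values were screened for a library far from the other 7, of which chance marks about 1 in 20, and 16 were marked. In tibialis, Actc1 in R6/2 male 4 at 100 mg/kg stood at 412 CPM, with the next at 225. In heart, Acta1 in R6/2 vehicle male 1 stood at 43.3 CPM (next 18.6). Male 4 of several arms stood high in heart. These were Ckm at 1256 CPM (next 1031) and Des at 1080 CPM (next 869) in R6/2 at 30 mg/kg, Des at 1037 CPM (next 935) at 100 mg/kg, and Ckmt2 at 1885 CPM (next 1608) and Mb at 10468 CPM (next 9042) in wild type. The wild-type and 100 mg/kg male 4 hearts are libraries of few long transcripts, whose part was not tested. Without such libraries the heart log2 fold changes were -0.32 for Ckmt2 and -0.39 for Mb.

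In cortex, Acta1 was low in R6/2 female 2 at 30 mg/kg, at 2.2 CPM with the nearest at 3.35. In striatum, the library of the wild-type mouse that goes against its sex label held Acta1 at 15.7 CPM (next 7.04), Ckm at 9.29 CPM (next 2.57) and Mb at 1.83 CPM (next 0.756). R6/2 vehicle female 4 held Ckm at 3.44 CPM (next 1.16) and Myh4 at 10.4 CPM. R6/2 vehicle male 2, a library of few long transcripts, held Ckb at 1250 CPM (next 770), Ckmt1 at 155 CPM (next 101) and Mylk4 at 3.16 CPM (next 0.712). In R6/2 male 3 at 100 mg/kg, also of that kind, Mylk4 stood at 0.573 CPM (next 0.406).

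The effect of genotype differed between tibialis and heart, by the test of the difference itself, for Mylk4 (-3.34 log2, tibialis minus heart), Mb (-1.46), Ckm (-1.28), Ckmt2 (-0.53) and Actc1 (0.59).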

How the results depend on the processing

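Of 558 combinations of gene and setting beside the leave-one-out refits, 524 kept direction and call, 18 lost the call, 8 gained one and 8 changed direction; the cause was not tested. In tibialis, 3 of the genes rose with total counts, log2(FPKM + 0.1) and log2(FPKM + 1), where Ckb was 0.58, 0.57 and 0.45 and Des 0.38, 0.39 and 0.39, and all-gene counts were 12628, 10927 and 10895 higher and 523, 453 and 457 lower. In heart the same settings gave 3972, 3206 and 3186 genes higher and 274, 260 and 262 lower. On the 2 FPKM settings 2901 and 2913 genes fell in cortex and 2064 and 2101 in striatum, where 1 of the set fell. Between tibialis and heart, total counts gave 0.01 for Ckmt2, and calls for Des (0.46) and Ckb (0.70). Leaving out tibialis R6/2 male 4 at 100 mg/kg, chosen after seeing the data, took Actc1 from 0.51 to 0.21. DESeq2 had 1 gene, Ckb, higher in tibialis at 100 mg/kg. By the labels a replicate number is a different mouse in each arm, and it was not a block in the main fits. Correlations of same-numbered samples ran from -0.39 to 0.25 in tibialis, with a median of -0.03. In heart they ran from -0.35 to 0.73, with a median of 0.10 and 24 of 48 pairs over 0.1. What same-numbered hearts share was not tested. With the replicate block the heart had 7 genes lower, as Ckb passed (-0.25 ± 0.07, edgeR adjusted p = 0.0126). Leaving out each of 16 libraries gave log2 fold changes from -2.40 to -2.28 for Acta1, -1.72 to -1.62 for Ckm and -3.59 to -3.35 for Mylk4 in tibialis, and -2.69 to -2.33 for Acta1 and -0.46 to -0.39 for Mb in heart. Low counts limit Ckmt1 in muscle and Acta1, Des and Mylk4 in brain.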
